A study of Mus musculus with 4 samples.

Results

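The 10 nuclear genes that encode chaperones and quality control proteases of mitochondria were 10 of the 55421 genes in the deposited table and were followed in adult mouse neural stem cells with and without Opa1. They were chosen by symbol as a set of genes known from the mitochondrial unfolded protein response: Hspd1, Hspe1, Hspa9, Dnaja3, Lonp1, Clpp, Clpx, Afg3l2, Spg7 and Htra2. All 10 were found and all 10 passed the filter on low values. RNA sequencing was done on cells sorted for the yellow fluorescent protein YFP, in 2 wild-type (WT) libraries and 2 Opa1 knockout (Opa1 KO) libraries. Per the study's methods, both groups carried a tamoxifen-inducible Cre driven by the Nestin promoter and a Cre-dependent YFP reporter and received tamoxifen, and the Opa1 KO group was in addition homozygous for a floxed Opa1, on a C57/BL/6 background. The reporter marks Nestin-expressing stem cells and stays on in their progeny, so the sort held a mixed population, which the study's text places in the subventricular zone of adult mice. The study's methods describe adult mice that were some weeks old at treatment and a sort some weeks after tamoxifen, although another passage of its text gives a shorter time. The labels give neither age nor time, and leave unstated if each library was made from 1 animal or from a pool, so the spread behind each test may be technical rather than that between animals.

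Most mitochondrial proteins are made in the cytosol and enter mitochondria unfolded. The HSP70 of the matrix, with J-protein partners, pulls them in and keeps them soluble. The chaperonin barrel and its lid fold them, and ATP-dependent proteases of the matrix and inner membrane remove those that fail. When unfolded protein builds up, mammalian cells can raise the transcripts of these genes through the transcription factors CHOP, ATF4 and ATF5, a programme called the mitochondrial unfolded protein response. Opa1 is the dynamin-like GTPase that fuses inner membranes and shapes cristae, and its loss disturbs the compartment in which these proteins work. The m-AAA protease subunits are known from human disease of long axons and the cerebellum. The comparison asked whether the transcripts of this set differed once Opa1 was lost.

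The chaperonin pair shares 1 promoter region, which is shown because it holds matches to a heat shock element and to TGCAAT, a core of the CHOP site. Hspd1 (mm10 chromosome 1, 55077835 to 55088243, minus strand) and Hspe1 (chromosome 1, 55088132 to 55091307, plus strand) lie head to head, and 112 bases of their annotated exons overlap. The RefSeq window of 250 bases before and 50 bases after the Hspe1 start, chr1:55087898-55088197 on the plus strand of GRCm38.p6, is written 5′ to 3′ with the matches to TGCAAT and to the heat shock element in capitals.
Hspe1: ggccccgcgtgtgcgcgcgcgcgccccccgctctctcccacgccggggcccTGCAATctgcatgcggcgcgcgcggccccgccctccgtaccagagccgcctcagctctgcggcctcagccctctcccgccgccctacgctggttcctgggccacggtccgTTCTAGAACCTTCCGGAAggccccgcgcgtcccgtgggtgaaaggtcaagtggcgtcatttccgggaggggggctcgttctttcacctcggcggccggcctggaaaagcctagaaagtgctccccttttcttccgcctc

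The capitals near the middle hold 2 overlapping matches to a heat shock element, here 3 alternating units of GAA and TTC with 2 free bases between neighbours (both strands searched), the first starting 89 bases before the Hspe1 start. The same bases are also matched in a window of Hspd1, read from the other strand. This element was found in 0.603% of 32851 RefSeq promoter windows of the same length. Windows were matched for 7 of the 10 genes, and Hspd1 and Hspe1 were the 2 with a heat shock element. The short element TGCAAT, a core of the CHOP site searched on both strands, was found 199 bases before the Hspe1 start and in 8.40% of all windows. Among the 7 genes it was again in windows of Hspd1 and Hspe1, where both matches are the same bases read from opposite strands. The letters TGATGNAAN of the composite element of ATF4 and C/EBP proteins were in none of the 7 genes' windows (0 of 7) and in 3.95% of all windows. The site of the respiratory gene regulator NRF1, written GCGC and TGCGC with 1 free base between them, was in windows of Dnaja3, Hspd1 and Spg7 and in 4.60% of all windows. A gene was counted if any of its windows had a match, while the percentages are shares of windows, so the counts and percentages cannot be compared directly. A match describes letters in a window and not a bound site.

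Values are deposited read counts divided by a size factor, called normalised read counts here, and log2 fold changes (Opa1 KO over WT) were taken after adding 1 to each value, with 95% intervals from limma-trend. Recovered totals were 19985853 to 23237326 reads per library, and each of the 10 genes had between 376 and 9870 reads in each library, so counting error alone (1 SD) was at most 5.16% of a value. Opa1 was at 3039 and 2833 in WT and at 837 and 739 in Opa1 KO (log2 fold change -1.90, SE 0.132), in the direction of the labels. All 10 markers of stem cells and their lineage were above 0 in all libraries, and 5 were higher and 5 lower in Opa1 KO. Markers of other cell types were present too, and none was at 0 in all libraries. All 8 pericyte markers were higher in Opa1 KO, with sums of 3371 and 2741 in WT against 6730 and 6961, as were all 8 oligodendrocyte markers, with sums of 44706 and 23401 against 60080 and 58935. The log2 fold change was also above 0 for all 8 endothelial, all 8 microglial and all 8 ependymal markers. In these 3 lists the Opa1 KO libraries were both above both WT libraries for 0, 1 and 0 markers. In bulk samples, fewer cells of a type and less RNA per cell cannot be told apart, and the part of these cells in the values below was not tested.

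None of the 10 genes passed the main test. Opa1, the deleted gene, did not pass it either (adjusted p = 0.998 by limma-trend). Not passing this test therefore does not show that a gene was unchanged. By limma-trend 0 of 18547 genes were called at an adjusted p under 0.05 (0% in the background and 0 of the 10), while 666 genes (3.59%) had an unadjusted p under 0.05, 470 of them higher, and 0 of these were among the 10. The edgeR quasi-likelihood test on recovered reads also called 0 genes (0%), its unadjusted p being under 0.05 for 504 higher and 212 lower genes. For limma-voom, which called 0 as well (0%), those numbers were 507 and 203. DESeq2 called 59 genes (0.318%) and limma-trend with a replicate block 182 (0.981%), and in both 0 of the 10 were called. In the limma-trend test, 6 of the 10 were higher and 4 lower, with a median log2 fold change of 0.03 beside -0.01 over all genes tested. The median absolute change was 0.0996, beside 0.183 over all genes and 0.139 over the 9393 genes whose level was at or above that of the lowest of the 10.

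**Figure D1:**
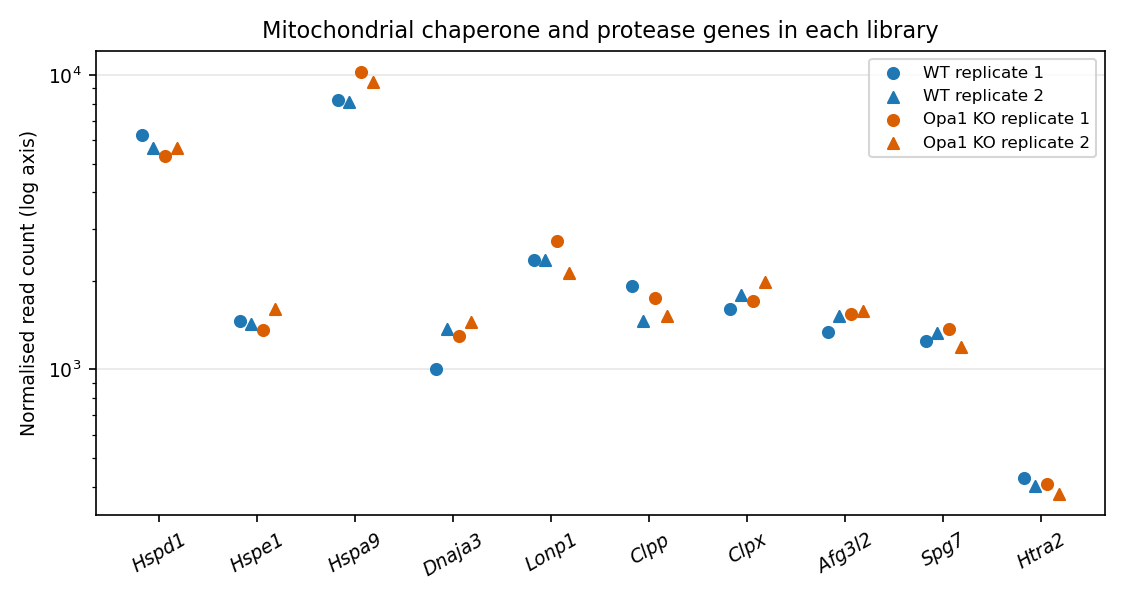
Normalised read count (log axis) of the 10 genes in each of the 4 libraries, with WT in blue, Opa1 KO in orange, circles for replicate 1 and triangles for replicate 2. Hspa9 and Afg3l2 were the 2 genes whose Opa1 KO libraries both lay above both WT libraries, and no gene lay apart in the lower direction.

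Hspa9, which encodes the matrix HSP70 mortalin, had the largest absolute log2 fold change of the 10 with all 4 libraries. Without WT replicate 2 that of Dnaja3 was larger (0.45 against 0.26), and without Opa1 KO replicate 1 those of Dnaja3 (0.31) and Clpx (0.23) were larger than that of Hspa9 (0.21). WT replicates 1 and 2 held 8243 and 8098 normalised reads, and Opa1 KO replicates 1 and 2 held 10249 and 9449. Both Opa1 KO libraries were above both WT libraries, and the spread within each group was smaller than the gap between them. The mean went from 8171 ± 103 (SD, n = 2 libraries) to 9849 ± 565 (SD, n = 2 libraries), or 1.20-fold. The log2 fold change of 0.27 (SE 0.123) had an interval from -0.06 to 0.60, or 0.959- to 1.51-fold, and did not pass by limma-trend (adjusted p = 0.998, unadjusted 0.0879). DESeq2 gave an unadjusted p of 0.0302 and an adjusted p of 1, beside 2.39% of all genes that were higher at an unadjusted p under 0.05. Groups that did not overlap were common, since 30.9% of all genes tested were apart, 15.2% in the higher direction and 15.7% in the lower, against 2 of the 10 higher and 0 lower. A larger absolute change than that of Hspa9 was found for 6348 genes, 34.2% of those tested. Hspa9 lies on mm10 chromosome 18 (34937414 to 34954357, minus strand), and its 1 annotated near-identical copy, a processed pseudogene, was listed at 0 in all libraries.

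Dnaja3, a J-domain partner that stimulates the ATPase of mortalin, was lowest in 1 WT library. It was at 1005 and 1366 in WT and at 1301 and 1454 in Opa1 KO. The groups overlapped, because WT replicate 2 was above Opa1 KO replicate 1, and the difference between the WT libraries (0.44 in log2) exceeded that between the genotypes. The log2 fold change was 0.23 (SE 0.195), and its interval from -0.29 to 0.75 was the one that reached highest among the 10, to 1.69-fold. Without WT replicate 1 the log2 fold change was 0.01. Dnaja3 (chromosome 16, 4639989 to 4707695, plus strand) shares 3.91% of its exon bases with Coro7 on the other strand and 4.09% with Vasn on its own strand. The strand setting of the counting is not given in the sources used here, so reads in such overlaps cannot be assigned with certainty.

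The chaperonin genes differed between the genotypes by less than the replicates of at least 1 genotype did. Hspd1, the HSP60 subunit that forms the folding barrel, was at 6277 and 5635 in WT and at 5291 and 5661 in Opa1 KO. The ranges overlapped, with Opa1 KO replicate 1 below both WT libraries and Opa1 KO replicate 2 between them. The log2 fold change was -0.12 (SE 0.128, interval -0.46 to 0.22, adjusted p = 0.998 by limma-trend). Hspe1, the HSP10 lid of the barrel, was at 1463 and 1431 in WT and at 1359 and 1609 in Opa1 KO, so the Opa1 KO libraries lay on either side of the WT pair. Its log2 fold change was 0.03 (SE 0.140, interval -0.34 to 0.41). Hspd1 and Hspe1 have 5 annotated near-identical copies each, whose summed values came to 0.350 to 0.742% and 0.560 to 0.993% of the parent gene per library. Reads exchanged between the genes and these copies were not measured.

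Lonp1, Clpp and Clpx, which encode the ATP-dependent proteases of the matrix, showed no shared direction. Lonp1, which degrades oxidised and misfolded proteins and binds mitochondrial DNA, was at 2353 and 2352 in WT and at 2739 and 2126 in Opa1 KO. The WT libraries were nearly equal, and 1 Opa1 KO library lay above and the other below them. The log2 fold change was 0.04 (SE 0.164, interval -0.40 to 0.48). Clpp, the proteolytic barrel, was at 1921 and 1456 in WT and at 1745 and 1520 in Opa1 KO. Both Opa1 KO values lay between the WT values, and the log2 fold change was -0.04 (SE 0.187, interval -0.54 to 0.46). Clpx, the unfoldase that feeds Clpp, was at 1603 and 1784 in WT and at 1709 and 1981 in Opa1 KO, with overlapping groups and a log2 fold change of 0.12 (SE 0.142, interval -0.26 to 0.50). Lonp1 (56614297 to 56626887, minus strand) and Clpp (56990305 to 56996188, plus strand) both lie on chromosome 17, and Clpx lies on chromosome 9 (65294260 to 65330658, plus strand).

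The m-AAA protease of the inner membrane is built from Afg3l2, alone or with paraplegin, the product of Spg7. Afg3l2 was at 1339 and 1517 in WT and at 1539 and 1582 in Opa1 KO. Both Opa1 KO libraries were above both WT libraries, by a small margin over WT replicate 2. The log2 fold change was 0.13 (SE 0.128, interval -0.21 to 0.47), smaller than the difference of 0.18 between the WT libraries. Spg7 was at 1245 and 1333 in WT and at 1373 and 1188 in Opa1 KO, so the Opa1 KO libraries enclosed the WT libraries, and the log2 fold change was -0.01 (SE 0.138, interval -0.38 to 0.36). Afg3l2 lies on chromosome 18 (67404764 to 67449172, minus strand) and Spg7 on chromosome 8 (123062942 to 123097760, plus strand).

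Htra2, a serine protease of the intermembrane space that can also promote apoptosis once released, had the lowest level of the 10. It was at 428 and 402 in WT and at 409 and 376 in Opa1 KO. The groups overlapped, with Opa1 KO replicate 1 between the WT libraries. The log2 fold change was -0.08 (SE 0.158, interval -0.50 to 0.34). Htra2 lies on chromosome 6 (83051266 to 83055273, minus strand) and shares 18.2% of its exon bases with Loxl3 and 25.6% with Aup1, both on the other strand. Without the strand setting, reads in these overlaps cannot be assigned with certainty.

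**Figure D2:**
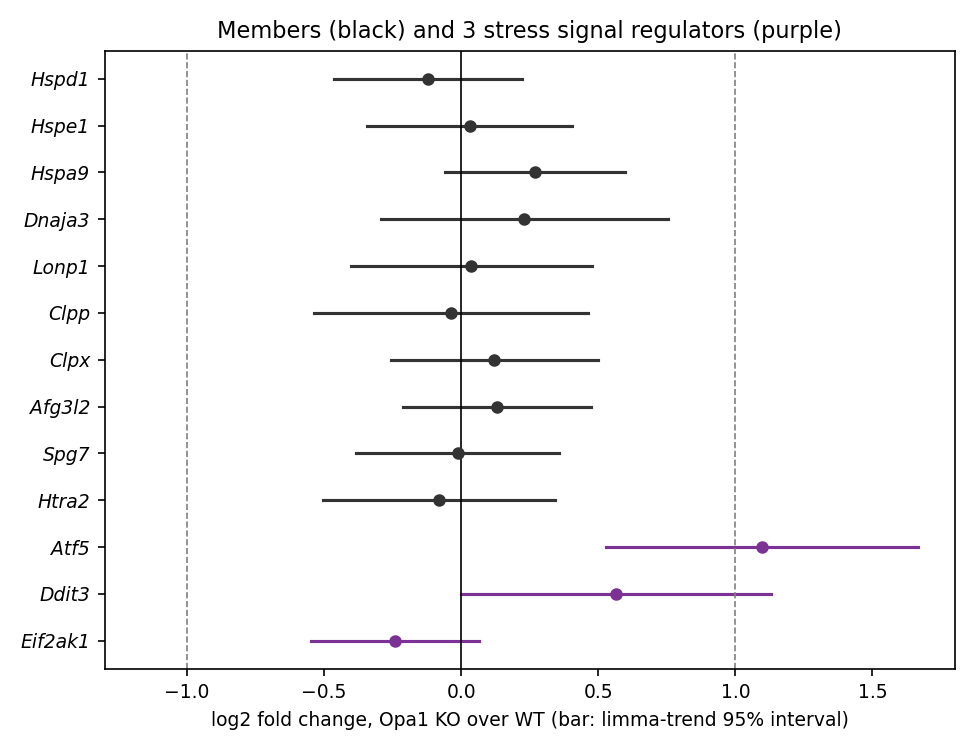
Log2 fold change of Opa1 KO over WT (points) with the limma-trend 95% interval (bars) for the 10 genes in black and for 3 regulators of the stress signal in purple. The 3 were picked as those with the smallest p of 12 regulators in these same data. Dashed lines mark a 2-fold change in either direction. All 10 black intervals include 0 and stay inside the dashed lines, while that of Atf5 runs from 0.53 to 1.67.

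An interval gives the range of change that is compatible with a gene's values, and not the size of change that the test can call. Opa1 did not pass at a log2 fold change of -1.90 in the limma-trend fit with genotype alone. Same-numbered libraries deviated together across genes (r = 0.72), and this fit does not take that into account. For all 10 genes the interval stayed below a 2-fold increase, and for 8 of 10 below a 1.5-fold increase, the exceptions being Hspa9 (up to 1.51-fold) and Dnaja3 (up to 1.69-fold). In the lower direction all 10 intervals stayed above a 1.5-fold decrease, the lowest bound being 0.689-fold for Clpp. Differences inside these intervals were not resolved by this test. For 9 of the 10 genes the difference between replicates of at least 1 genotype was larger than that between the genotypes, the exception being Hspa9. This sets the larger of the replicate differences against a difference of means. The share over all genes was not computed, so the count is not a trait of this set.

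For 3 of the 10 genes the replicates differed in the same direction in both genotypes by more than 2 counting SDs. Clpp was higher in the replicate 1 library of both, and Clpx and Dnaja3 in the replicate 2 library of both. The share of all genes that differed in this way was not computed. Markers of ependymal cells, the ciliated cells that line the ventricle, also differed between the replicate numbers, with sums of 5575 and 8482 in replicate 1 of WT and Opa1 KO and 34947 and 31830 in replicate 2. Tmem119, a marker of microglia, went the other way, at 71.7 and 91.4 in replicate 1 and 9.72 and 26.8 in replicate 2. The part of these cells in the values of the 3 genes was not tested. Opa1 KO minus WT had 1 sign in both same-numbered comparisons for 5 of the 10 genes, higher for Hspa9, Dnaja3, Clpx and Afg3l2 and lower for Htra2. The share of all genes with 1 sign in both comparisons was not computed.

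Summed over the 10 genes, the normalised read count was 25880 and 25374 in WT and 27714 and 26947 in Opa1 KO. Both Opa1 KO libraries were above both WT libraries. Hspa9 held 31.9% of the sum in each WT library and 37.0% and 35.1% in Opa1 KO. Without it the sums were 17636 and 17276 in WT and 17465 and 17498 in Opa1 KO, so both Opa1 KO sums lay between those of WT.

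Per kilobase of annotated exon, the main chaperones of the matrix stood highest. Hspd1 (2003 to 2376 normalised reads per kilobase over the 4 libraries) and Hspa9 (1879 to 2378) were highest and overlapped. Clpp (1190 to 1571), Hspe1 (922 to 1092) and Lonp1 (486 to 626) followed, and Lonp1 overlapped with Clpx (459 to 567). Dnaja3 (257 to 372) was not separated from Spg7 (263 to 304), nor Afg3l2 (136 to 160) from Htra2 (128 to 145). The other neighbours in this order were apart in all 4 libraries. The exon length is the union over all annotated transcripts, and was longest for Afg3l2, at 9874 bases.

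**Figure D3:**
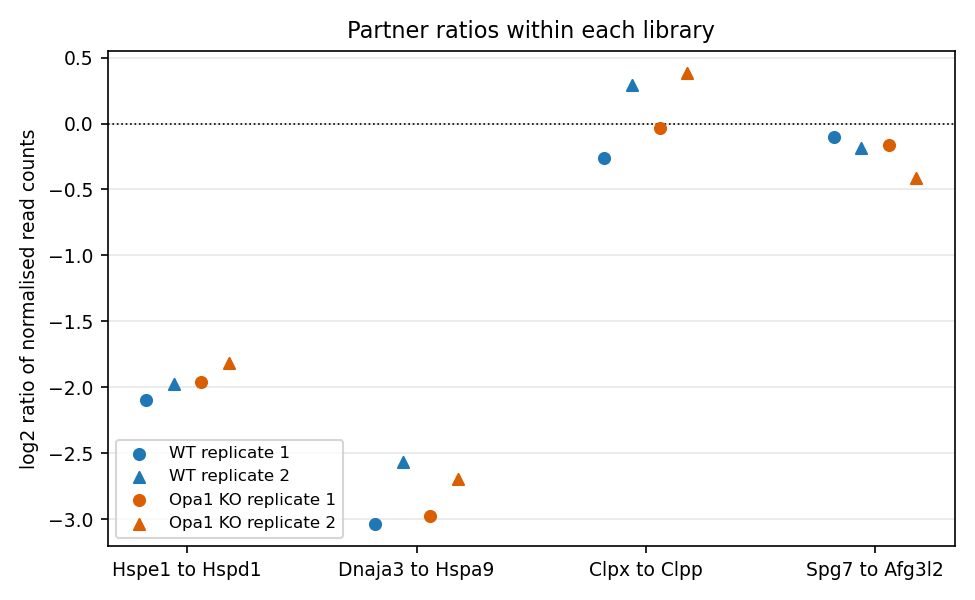
Log2 ratio of the normalised read counts of 4 pairs of partner genes within each library, with WT in blue, Opa1 KO in orange, circles for replicate 1 and triangles for replicate 2. In the ratio of Clpx to Clpp the triangles lie above the circles in both genotypes, and in that of Hspe1 to Hspd1 both orange points lie above both blue points.

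Ratios of partner genes within a library do not depend on its size factor. The log2 ratio of Hspe1 to Hspd1 was -2.10 and -1.98 in WT and -1.96 and -1.81 in Opa1 KO, so the lid transcript was slightly higher relative to the barrel in both Opa1 KO libraries. The difference of 0.15 gave p = 0.333 in a two-sided exact permutation test, which is the floor for 2 libraries against 2, and an adjusted p of 0.889 over the 4 ratios. The ratio of Clpx to Clpp was -0.26 and 0.29 in WT and -0.03 and 0.38 in Opa1 KO (difference 0.16, exact permutation p = 0.667), and that of Spg7 to Afg3l2 was -0.10 and -0.19 against -0.16 and -0.41 (difference -0.14, exact permutation p = 0.667). For Dnaja3 to Hspa9 it was -3.03 and -2.57 in WT and -2.98 and -2.70 in Opa1 KO, with overlapping groups and a difference of -0.04 (exact permutation p = 1). The adjusted p was 0.889 for the first 3 ratios and 1 for the last, and a comparison of this size cannot pass the threshold.

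Other genes of mitochondrial protein folding and proteolysis did not pass either. Of 12 other mitochondrial chaperones and co-chaperones, 4 were higher and 8 lower (median log2 fold change -0.02), and 0 passed. The smallest p in this list belonged to Hscb, the co-chaperone of iron-sulfur cluster transfer (91.0 and 122 against 127 and 169, 0.48 on the log2 scale, SE 0.289), to Grpel1, the nucleotide exchange factor of mortalin (2075 and 1825 against 1882 and 1562, -0.18, SE 0.155), and to Dnlz, which keeps mortalin soluble (951 and 832 against 838 and 754, -0.16, SE 0.148). Hscb was apart between the groups, and Grpel1 and Dnlz overlapped. Of 14 other mitochondrial proteases and peptidases, 10 were higher and 4 lower (median 0.03), and 0 passed, with Pmpca, a subunit of the presequence peptidase, at -0.18 (SE 0.123), Immp2l, of the inner membrane peptidase, at 0.27 (SE 0.239), and Afg3l1, the third m-AAA subunit of the mouse, at -0.12 (SE 0.144). Oma1 and Yme1l1, the proteases that cut Opa1 itself and were singled out after their values were seen, moved by 0.05 (SE 0.243) and -0.05 (SE 0.111) on the log2 scale.

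Among the mitochondrial lists and their regulators, Atf5 had the largest log2 fold change. Atf5, a transcription factor that can induce mitochondrial chaperones and proteases, was at 115 and 101 in WT and at 242 and 223 in Opa1 KO. Both Opa1 KO libraries were about at the same level and well above WT, a 2.14-fold higher mean (log2 fold change 1.10, SE 0.213, interval 0.53 to 1.67). It did not pass by limma-trend (adjusted p = 0.998, unadjusted 0.00508) or DESeq2 (adjusted p = 0.0970). With the replicate number as a block, limma-trend gave an adjusted p of 0.0487. Ddit3, which encodes CHOP, was at 462 and 336 in WT and 603 and 564 in Opa1 KO (0.56 on the log2 scale, SE 0.212), apart between the groups and with an adjusted p of 0.998 by limma-trend. The symbol Ddit3 belongs to 2 gene identifiers, and the values are those of the first only. Eif2ak1, the kinase HRI that relays mitochondrial stress to eIF2, was lower in both Opa1 KO libraries, at 1734 and 1671 against 2070 and 1957 (log2 fold change -0.24, SE 0.115, not passed). Of the 12 regulators 9 were higher and 3 lower (median 0.06), 0 passed by limma-trend, and 1, Atf5, passed with the block. Atf5, Ddit3 and Eif2ak1 were picked as those with the smallest p of the 12, so they do not stand for the list.

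**Figure D4:**
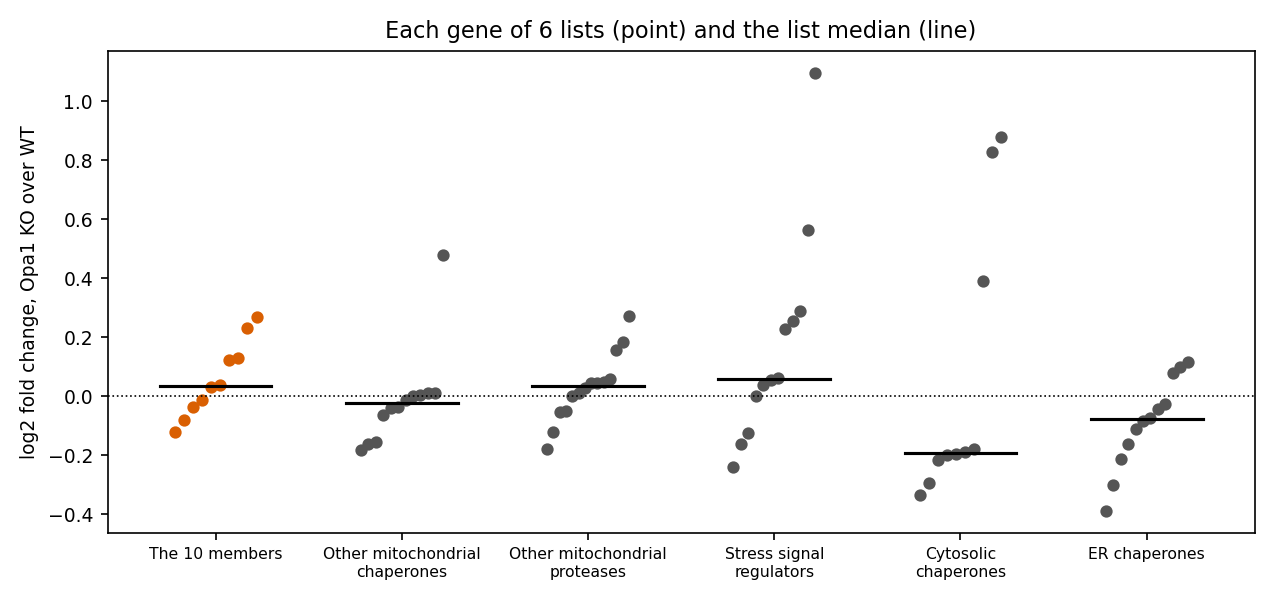
Log2 fold change of Opa1 KO over WT (vertical axis) for each gene (point) of the 10 mitochondrial chaperones and proteases (orange) and of 5 other lists (grey), with the list median as a line. The 10 genes lie between -0.12 and 0.27, and the highest grey points are Atf5 at 1.10 and Hspa1a and Hspa1b at 0.88 and 0.83.

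Chaperones of the other compartments were set beside them. Of 10 cytosolic heat shock chaperones 3 were higher and 7 lower in Opa1 KO (median log2 fold change -0.19). Hspa1b, a stress-inducible HSP70, was at 505 and 494 in WT and 851 and 926 in Opa1 KO (0.83 on the log2 scale, SE 0.137), and was called by DESeq2 (adjusted p = 0.00548) and not by limma-trend (adjusted p = 0.998). Hspa1a was at 321 and 224 against 484 and 504 (0.88, SE 0.234), and since the pair is nearly identical in sequence, reads may be split between them. Hspa8, the constitutive HSP70, was at 36229 and 36384 in WT and at 27923 and 29592 in Opa1 KO (-0.34, SE 0.131, adjusted p = 0.998 by limma-trend). Of 12 chaperones of the endoplasmic reticulum 3 were higher and 9 lower (median -0.08), and 0 passed, the smallest p belonging to Sdf2l1 (-0.39, SE 0.193), Pdia6 (-0.21, SE 0.128) and Hspa5, which encodes BiP (-0.30, SE 0.221). The difference between these lists was not tested.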

How the data were processed

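The deposited table holds, per gene and library, a signal that the authors made by dividing featureCounts read counts by a DESeq2 size factor. Per the submitters' processing notes, reads were aligned with HISAT2 to mm10; versions, annotation release, library kit and strand setting were not given in the sources used here. Dividing by the smallest step gave whole reads for 100% of values (tolerance 1e-06). Columns were mapped by sample descriptions, whose numbers differ from those in the titles. The authors' fold change and p-value columns and 12 other per-sample columns were not used.

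The main test was limma-trend 3.58.1 with robust moderation on log2(value + 1), genotype as the only term, on genes with at least 10 in at least 2 libraries, two-sided, with Benjamini-Hochberg adjustment over all genes and a threshold of 0.05. This scale understates changes of low genes. On recovered reads edgeR 4.0.16 called 0 genes and DESeq2 1.42.0 called 59. Other settings were limma-voom, library size or TMM scaling, other filters and pseudocounts, no robust moderation, a replicate block and leaving out each library. The tests were also run on simulated counts with known changes. Those counts held no difference shared by same-numbered libraries, so the runs do not show how well the tests perform on these data.

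Symbols (55154 of 55421 identifiers) and places came from the mm10 annotation. Copies were transcripts of other genes aligned over at least 200 bases at 90% identity with BLAST+ 2.17.0. Exact permutation tests of ratios used SciPy 1.17.1. Named genes were the 10, Opa1 and, per list, the 3 with the smallest p. Of these, 1 gene that this rule names is not reported here. The members, lists and settings were chosen with earlier results of these data known.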

Additional observations from a re-analysis of the deposited data

How the results depend on the processing

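In every setting tried 0 of the 10 genes were called. The number of all genes called was 0 by limma-trend and 2 with no filter, 59 by DESeq2 and 182 with the replicate block. The labels tie these numbers to no animal or batch, and deviations of the replicate 1 libraries from their group means correlated across 18547 genes (r = 0.72). With this block the smallest adjusted p among the 10 was 0.136 (Hspa9), and those of Opa1 and Atf5 were 0.000473 and 0.0487. The unadjusted p of Hspa9 by limma-trend with the block was 0.00751. Of the 18547 genes, 1603 higher and 1574 lower had an unadjusted p under 0.05 in that fit. Of the other genes given with values, the block also called Hspa1b, Aldoc, Slc1a3, Dcx, Pdgfrb, Abcc9, Higd1b, Cnp and Ly6c1, with adjusted p from 0.00478 to 0.0334. Scaling by library size alone moved the median of all genes to 0.05 and turned Clpp to 0.0147 and Spg7 to 0.0405. It brought 1 of the 10 genes to an unadjusted p of 0.0412 by limma-trend. Of the 18547 genes, 623 higher and 148 lower had an unadjusted p under 0.05 with this scaling.

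Leaving out each library in turn, Hspa9, Dnaja3, Clpx and Afg3l2 stayed higher and Hspd1 and Htra2 lower. The sign changed for Hspe1 (-0.0904 to 0.15), Lonp1 (-0.15 to 0.22), Clpp (-0.24 to 0.16), Spg7 (-0.12 to 0.0920), Tmem119 (-0.52 to 2.24), Dynlrb2 (-0.99 to 1.67), Ccdc153 (-1.06 to 1.73) and Tmem212 (-1.09 to 1.61), and for the ratios of Dnaja3 to Hspa9 (-0.27 to 0.20) and Clpx to Clpp (-0.12 to 0.44). The causes were not tested. The other comparisons kept their direction and call in 66 main and 625 single-gene alternatives, and 18 single-gene values passed where they had not before. With 2 libraries per group, differences inside the intervals given were not resolved by limma-trend with genotype alone.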

Other observations

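The marker lists checked for the sort held values that belong to no comparison above. Among lineage markers, the astrocyte and stem cell genes Aldoc (18408 and 17610 in WT, 25423 and 25267 in Opa1 KO, 0.49 on the log2 scale, SE 0.126) and Slc1a3 (0.48, SE 0.135) were higher and were called by DESeq2, with adjusted p of 0.00803 and 0.0170. Dcx, the neuroblast marker, was at 23028 and 20655 in WT and at 17099 and 14067 in Opa1 KO (-0.49, SE 0.164), and was not called by DESeq2 (adjusted p = 0.614). By limma-trend with genotype alone none of these passed, and with the replicate block all 3 did (adjusted p = 0.0334 each).

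All 8 pericyte genes were higher in both Opa1 KO libraries than in both WT libraries. Pdgfrb, the receptor that defines these cells, was at 1058 and 1045 in WT and at 2105 and 2126 in Opa1 KO (1.01 on the log2 scale, SE 0.113), and Abcc9 (1.75, SE 0.222) and Higd1b (1.83, SE 0.341) were higher as well. DESeq2 called Pdgfrb, Abcc9 and Vtn. Of the oligodendrocyte genes, Cnp (0.53, SE 0.133), Mbp (0.91, SE 0.301) and Mag (1650 and 806 in WT, 2339 and 2293 in Opa1 KO) had the smallest p, and 0 were called by DESeq2. With the replicate block Cnp passed (adjusted p = 0.0334).

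Endothelial and microglial markers overlapped more. All 8 endothelial markers were higher, with a median of 0.54, and Ly6c1 (0.99, SE 0.583), Esam (0.50, SE 0.344) and Flt1 (0.76, SE 0.559) were each highest in Opa1 KO replicate 2. Of these Ly6c1 passed with the block (adjusted p = 0.0334). Of the microglial markers, Aif1 (1.55, SE 1.12) and Tmem119 (0.86, SE 1.21) had errors close to or above their log2 fold changes. The ependymal genes Dynlrb2 (0.34, SE 1.18), Ccdc153 (0.34, SE 1.26) and Tmem212 (0.26, SE 1.22) differed mainly between replicate numbers, Ccdc153 being at 926 and 1502 in replicate 1 of WT and Opa1 KO and at 6403 and 6319 in replicate 2.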
